A study of Mus musculus with 13 samples.

Results

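The genes described here are 10 regulators of the G1 phase of the cell cycle, taken by symbol from the 47937 genes of a count table of DN3 and DN4 thymocytes. They are the D cyclins Ccnd1, Ccnd2 and Ccnd3, the cyclin-dependent kinases Cdk4, Cdk6 and Cdk2, the kinase inhibitors Cdkn1b, Cdkn2c and Cdkn2d, and the pocket protein gene Rb1. All 10 were found in the table and 9 passed the filter on low counts in every comparison, the exception being Ccnd1. RNA of thymocytes was sequenced in 13 libraries, from cells sorted without culture or treatment from C57BL/6 mice aged 6 weeks. The groups were 3 DN3 and 4 DN4 libraries of Wt;Lck-Cre+ mice (called Wt) and 3 DN3 and 3 DN4 libraries of Opa1fl/fl;Lck-Cre+ mice, labelled OPA1 KO and called KO-labelled here. Mice of both genotypes carried Lck-Cre, which is expressed in developing T cells, so that the loxP-flanked Opa1 alleles were the difference between the groups. Each library carried a number in its label, and 6 numbers (KO45, KO49, KO51, WT05, WT46 and WT48) occurred at both stages while WT40 occurred at DN4 alone. The labels do not say what the number stands for; libraries of the same number deviated together from their group means (Pearson correlation across 13361 genes between 0.123 and 0.495 for the 6 numbers), and each number was taken as 1 mouse.

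D cyclins are the part of the G1 machinery that responds to signals from outside the cell. They bind CDK4 or CDK6, and the active kinases phosphorylate the retinoblastoma protein RB, which then releases E2F transcription factors and lets the cell enter S phase, with CDK2 and its cyclins completing the phosphorylation. Inhibitors of the INK4 family, among them p18 (Cdkn2c) and p19 (Cdkn2d), bind CDK4 and CDK6, whereas p27 (Cdkn1b) binds complexes of cyclins with CDK2 and also associates with D cyclin complexes. In the thymus, DN3 cells that have produced a working T cell receptor beta chain pass β-selection, proliferate and become DN4 cells. Cyclin D3 and CDK6 are known from mouse genetics as regulators of the expansion of early thymocytes, and p27 as a brake on it.

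The libraries held 5926848 to 14148661 counts. Levels are given as CPM, counts set against the library size after scaling of library sizes by the trimmed mean of M-values (TMM), and levels of different genes are set side by side only per kb of exon. The exon length of a gene is that of all its annotated exons merged, not that of the transcript expressed. The DN3 library of mouse WT05 stood apart: 39.36% of its counts fell on genes that hold over 1% of a library, against 1.348% to 2.674% in the other 12, and its effective size after scaling was 3417440. The summed level of the stage markers followed the labels. The summed level of 8 DN3 markers was 2120 to 2950 CPM in DN3 and 465 to 1960 CPM in DN4, and that of 8 DN4 and immature single-positive markers was 325 to 456 CPM in DN3 and 929 to 4040 CPM in DN4. Single DN3 markers did not all follow: 5 of 8 were called lower in DN4 in Wt and 6 of 8 in KO-labelled cells, where Rag1 had a positive change (0.50 ± 0.36 on the log2 scale, edgeR adjusted p = 0.376) and Rag2 a change of -0.05 ± 0.36 (adjusted p = 0.943). In the flow cytometry of the study DN3 and DN4 cells were taken from lineage-negative thymocytes, a gate meant to remove B cells and other lineages, and the antibodies of the sort for RNA are not given in the sources used here. The DN4 libraries held RNA of B cell markers: the 8 markers summed to 286 to 428 CPM in DN3 and to 897 to 5100 CPM in DN4, with Ebf1 and Pax5 each at 0 in a DN3 library and no marker at 0 in DN4. All 8 B cell markers were called higher in DN4 in both genotypes. Of the 6 NK and innate lymphoid markers, Klrb1c, Klrd1 and Eomes had 0 or 1 counts in every DN3 library, averaged 2.48 to 12.7 CPM in DN4 and were called higher in DN4 in both genotypes, as was Nkg7 in Wt cells, while the sum over the list was 239 to 326 CPM in DN3 and 229 to 447 CPM in DN4. The 6 gamma delta T markers summed to 1060 to 2060 CPM in DN3 and 687 to 1960 CPM in DN4, with Sox13 and Trdc called higher in Wt cells (log2 changes of 1.59 and 0.77) and 2 others lower, against 0 higher and 3 lower in KO-labelled cells. Sums of 6 plasmacytoid dendritic markers were 258 to 463 CPM in DN3 and 523 to 983 CPM in DN4, and those of 6 progenitor (DN1/DN2) markers 46.4 to 101 and 60.8 to 436 CPM. Opa1, the targeted gene, averaged 90.6 ± 2.79 CPM (SD, n = 3) in KO-labelled and 98.3 ± 11.7 CPM (SD, n = 3) in Wt DN3 cells, and 82.1 ± 5.53 CPM (SD, n = 3) and 89.0 ± 3.93 CPM (SD, n = 4) in DN4 cells, with overlapping ranges at both stages. Counts over the whole gene do not show which exons were read, so they do not check the deletion.

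**Figure D1:**
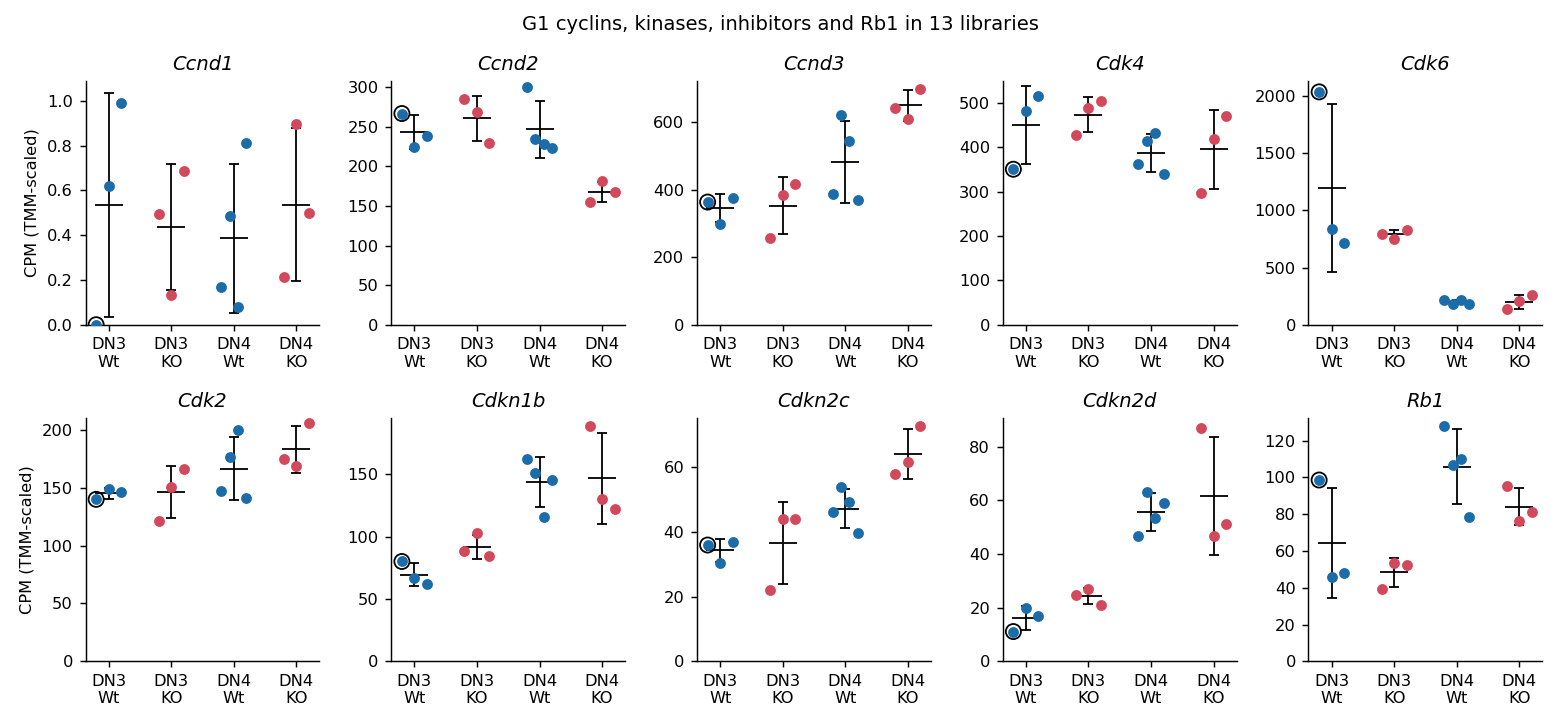
Level of each of the 10 genes in CPM (linear axes from 0, a scale of its own for each gene) in the 13 libraries, Wt in blue and KO-labelled in red. Points are libraries, bars the mean and SD of a group, and the black ring marks the DN3 library of mouse WT05, which holds the highest Cdk6 value (2037 CPM) while all DN4 values of Cdk6 lie at or below 262 CPM.

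Cdk4 had the highest mean level per kb in every group, at 119 to 146 CPM per kb, although in the Wt DN3 library of WT05 Cdk6 (146 CPM per kb) was above Cdk4 (108). The order rests on the exon lengths, 3249 bases for Cdk4 and 13989 for Cdk6. Before division by length, Cdk6 was above Cdk4 in DN3, at 791 against 473 CPM in KO-labelled and 1200 against 449 CPM in Wt cells. Second per kb in DN3 came Cdk6, at 56.5 CPM per kb in KO-labelled and 85.4 in Wt cells, and second in DN4 came Ccnd3, at 74.1 and 54.9 CPM per kb. In both DN4 groups Cdk6 had dropped to the eighth or ninth place (14.5 and 14.2 CPM per kb), below the inhibitors Cdkn2d and Cdkn1b in every library. Ccnd1 was last everywhere, at 0.082 to 0.114 CPM per kb on average. Not all neighbours in the order were separate. In the KO-labelled DN3 group the ranges overlapped between Ccnd3 and Ccnd2, Ccnd2 and Cdk2, Cdk2 and Cdkn1b, Cdkn2d and Cdkn2c, and Cdkn2c and Rb1. In the Wt DN3 group they overlapped between Cdk4 and Cdk6, Ccnd2 and Cdk2, Cdkn1b and Cdkn2c, Cdkn2c and Rb1, and Rb1 and Cdkn2d. The ranges of Cdkn2d and Cdkn1b, and of Cdkn1b and Cdk2, overlapped in both DN4 groups, and so did those of Rb1 and Cdk6. The neighbours Ccnd2 and Cdk6 overlapped in KO-labelled DN4 cells, as did Cdk2 and Ccnd2, and Cdkn2c and Rb1, in Wt DN4 cells.

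Between DN3 and DN4, 3 of the 9 tested genes passed the edgeR quasi-likelihood test in Wt cells at an adjusted p under 0.05, against 22.9% of the 12691 genes tested. Cdkn1b and Cdkn2d were higher in DN4 (as were 13.4% of all genes) and Cdk6 lower (9.43%). In KO-labelled cells 6 of the 9 passed, against 18.6% of 12580 genes: Ccnd3, Cdkn1b, Cdkn2d and Rb1 were higher (11.2% of all genes), Ccnd2 and Cdk6 lower (7.34%). The median log2 change over the 9 genes was 0.43 in Wt and 0.65 in KO-labelled cells, beside -0.03 and -0.02 over all genes tested. With the mouse number as a block, 4 of 9 were called in Wt (Rb1 in addition, background 18.7%) and all 9 in KO-labelled cells, where the background rose to 35.8%. Without the WT05 DN3 library 4 of 9 were called in Wt, again with Rb1. The CPM ranges of the stages did not overlap for 4 of 9 genes in Wt, where this held for 35.0% of all genes, and for 8 of 9 in KO-labelled cells, where it held for 38.7%. Because the RNA came from bulk populations, fewer cells of a type and less RNA per cell cannot be told apart in any of these values. All B cell markers and some of the NK, plasmacytoid dendritic and progenitor markers were called higher in DN4 in both genotypes. In KO-labelled cells 1 plasmacytoid dendritic marker and the progenitor marker Kit were called lower. Of the gamma delta markers, Sox13 and Trdc were called higher and Tcrg-C1 and Tcrg-C2 lower in Wt cells. In KO-labelled cells 3 gamma delta markers were called lower and 0 higher. The part of all these markers in the stage differences was not tested.

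**Figure D2:**
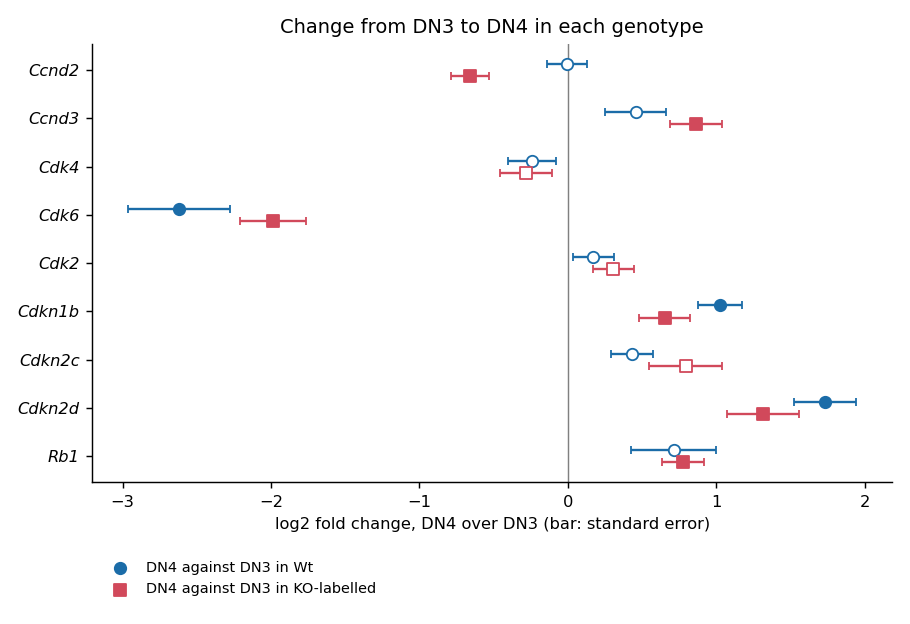
Log2 fold change of the 9 tested genes from DN3 to DN4 with its standard error, Wt as blue circles and KO-labelled as red squares. Filled symbols passed the edgeR test at an adjusted p under 0.05; Cdk6 is far to the left in both genotypes and Cdkn2d farthest to the right.

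The D cyclins differed in level by orders of magnitude. In KO-labelled cells Ccnd2 fell and Ccnd3 rose between the stages, and in Wt cells neither was called. Ccnd1 (cyclin D1; GRCm38 chromosome 7, 144929931 to 144939925, minus strand) had between 0 and 13 counts in a library and was not tested. Its single 0, in the WT05 DN3 library, allows a level of up to 0.878 CPM (3 counts, counting error only), and its highest value was 0.991 CPM. The level was too low at this depth for any comparison.

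Ccnd2 (cyclin D2; chromosome 6, 127125162 to 127152193, minus strand) measured 267, 225 and 238 CPM in the Wt DN3 libraries of mice WT05, WT46 and WT48. The Wt DN4 libraries of WT05, WT40, WT46 and WT48 gave 301, 235, 228 and 224 CPM, a range that covered the DN3 values. In KO-labelled cells DN3 libraries of KO45, KO49 and KO51 had 285, 269 and 229 CPM. Their DN4 libraries had 156, 181 and 168 CPM, all below every other library of the series. Thus Ccnd2 fell by 0.66 ± 0.13 (SE) on the log2 scale in KO-labelled cells (edgeR adjusted p = 0.0105), whereas in Wt cells the change was -0.00 ± 0.14 (adjusted p = 0.99). Within mice, DN4 was lower in 4 of 6, by up to 0.872 on the log2 scale.

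Ccnd3 (cyclin D3; chromosome 17, 47505051 to 47599691, plus strand) was at 364, 298 and 374 CPM in Wt DN3 libraries of WT05, WT46 and WT48. In Wt DN4 libraries it measured 389, 623, 545 and 371 CPM for WT05, WT40, WT46 and WT48, so that the lowest DN4 value lay inside the DN3 range. KO-labelled DN3 libraries of KO45, KO49 and KO51 had 257, 383 and 418 CPM. Their DN4 libraries reached 642, 609 and 700 CPM, all above every DN3 library. Ccnd3 rose by 0.86 ± 0.17 (SE, log2) in KO-labelled cells (edgeR adjusted p = 0.0117), and in Wt cells the change was 0.46 ± 0.20 (adjusted p = 0.149). Within mice it was higher in DN4 in 5 of 6. In DN4 the order of Ccnd3 levels was the reverse of that of the B cell marker sums: in Wt cells the sums were 1080, 1220, 2860 and 5100 CPM for WT40, WT46, WT05 and WT48, and in KO-labelled cells 897, 2140 and 3250 CPM for KO51, KO45 and KO49. The RefSeq table (GRCm38.p6) lists 2 starts for Ccnd3, and the 250 bases before the upstream start, at chr17:47504801-47505050, are shown because they carry a match to the FOXO motif TGTTTAC, 243 to 237 bases before the start, in capitals.
Ccnd3: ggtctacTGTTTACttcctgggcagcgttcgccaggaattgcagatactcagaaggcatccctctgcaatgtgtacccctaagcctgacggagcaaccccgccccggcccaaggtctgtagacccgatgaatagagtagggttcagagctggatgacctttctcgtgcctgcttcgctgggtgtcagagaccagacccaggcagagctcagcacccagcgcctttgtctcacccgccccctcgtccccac
Searched on both strands, this motif occurs in 3.17% of the 32851 promoters of the table in a window of that length. No match to any searched motif was present before the downstream start of Ccnd3. The table had promoters for 7 of the 10 genes and none for Ccnd1, Ccnd2 and Rb1.

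Among the kinases, which depend on a cyclin partner for activity, Cdk6 carried the largest change of the 9 tested genes in both genotypes. Cdk6 (chromosome 5, 3341485 to 3531008, plus strand) measured 2037, 834 and 715 CPM in the Wt DN3 libraries of WT05, WT46 and WT48. The Wt DN4 libraries gave 213, 183, 215 and 182 CPM for WT05, WT40, WT46 and WT48. In KO-labelled mice KO45, KO49 and KO51 the DN3 values were 797, 751 and 824 CPM, and the DN4 values were 140, 207 and 262 CPM. The stages were separate in both genotypes and in every mouse, with within-mouse changes of -3.26 to -1.65 on the log2 scale. Cdk6 fell by 2.62 ± 0.34 (SE, log2) in Wt (edgeR adjusted p = 0.00132), and the change was -1.99 ± 0.22 in KO-labelled cells (adjusted p = 0.0012). Without the WT05 DN3 library, which held the highest value, the Wt change was -2.00 ± 0.12 (adjusted p = 0.000121).

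Cdk4 (chromosome 10, 127063534 to 127067920, plus strand), the other kinase partner of the D cyclins, did not pass the test in either genotype. It measured 350, 482 and 516 CPM in Wt DN3 cells of WT05, WT46 and WT48, and 361, 414, 432 and 340 CPM in Wt DN4 cells of WT05, WT40, WT46 and WT48. KO-labelled cells of KO45, KO49 and KO51 had 428, 488 and 504 CPM at DN3 and 297, 418 and 469 CPM at DN4. The ranges overlapped in both genotypes. The change was -0.24 ± 0.16 (SE, log2) in Wt (edgeR adjusted p = 0.324) and -0.28 ± 0.17 in KO-labelled cells (adjusted p = 0.303), and DN4 was lower in 5 of 6 mice. On leaving out 1 library the change ranged from -0.40 to -0.13 in Wt and from -0.45 to -0.15 in KO-labelled cells. With the mouse block the KO-labelled change was -0.31 ± 0.11 (adjusted p = 0.0476). The 250 bases before the start of both kinase genes are shown because the pair parted between the stages, Cdk4 at chr10:127063285-127063534 and Cdk6 at chr5:3343643-3343892. Capitals mark matches to the E-box CACGTG, the letters bound by MYC, and in Cdk4 also a match to the RBPJ motif TGGGAA on the minus strand.
Cdk4: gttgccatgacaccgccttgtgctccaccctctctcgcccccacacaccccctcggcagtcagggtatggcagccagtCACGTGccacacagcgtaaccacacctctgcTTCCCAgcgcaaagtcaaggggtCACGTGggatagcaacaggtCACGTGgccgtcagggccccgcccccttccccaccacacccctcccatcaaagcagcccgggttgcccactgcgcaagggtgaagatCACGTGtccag
Cdk6: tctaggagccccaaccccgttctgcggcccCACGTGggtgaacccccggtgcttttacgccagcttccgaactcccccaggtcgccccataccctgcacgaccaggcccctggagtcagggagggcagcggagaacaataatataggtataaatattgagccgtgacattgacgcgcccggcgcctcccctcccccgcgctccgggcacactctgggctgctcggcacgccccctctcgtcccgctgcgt
The Cdk4 window held 4 E-boxes and the Cdk6 window 1, and none of these overlapped a match to another motif. A window of this length holds an E-box in 6.02% and the RBPJ letters in 21.6% of all promoters. A match of letters is not a measured binding site.

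Cdk2 (chromosome 10, 128697939 to 128705031, minus strand), the partner of E and A cyclins, did not pass the test in either genotype. Wt DN3 libraries of WT05, WT46 and WT48 had 140, 149 and 146 CPM, and Wt DN4 libraries of WT05, WT40, WT46 and WT48 had 148, 176, 200 and 141 CPM. KO-labelled libraries of KO45, KO49 and KO51 had 122, 150 and 166 CPM at DN3 and 174, 169 and 206 CPM at DN4, without overlap. The change was 0.17 ± 0.14 (SE, log2) in Wt (edgeR adjusted p = 0.417) and 0.31 ± 0.14 in KO-labelled cells (adjusted p = 0.164). With the mouse block the latter was 0.31 ± 0.08 (adjusted p = 0.0185). The promoter window of Cdk2 held a match to the E2F letters TTTCCCGC on the minus strand, 140 to 133 bases before the start. TTTCCCGC, TTTGGCGC or TTTCGCGC occur in 1.53% of all promoter windows.

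All 3 inhibitors were higher in DN4 than in DN3 in each of the 6 mice. Cdkn1b (p27; chromosome 6, 134920401 to 134925513, plus strand) measured 80.2, 66.8 and 62.1 CPM in Wt DN3 libraries of WT05, WT46 and WT48, and 162, 151, 116 and 146 CPM in Wt DN4 libraries of WT05, WT40, WT46 and WT48. KO-labelled libraries of KO45, KO49 and KO51 had 88.4, 103 and 84.7 CPM at DN3 and 189, 130 and 122 CPM at DN4. No DN4 library was as low as any DN3 library. Cdkn1b rose by 1.02 ± 0.15 (SE, log2) in Wt (edgeR adjusted p = 0.00212) and by 0.65 ± 0.17 in KO-labelled cells (adjusted p = 0.0355). The KO-labelled call was lost when any 1 of 5 of the 6 libraries was left out, all but the DN4 library of KO51, with adjusted p-values of 0.0612 to 0.155. The change ranged from 0.40, without the DN4 library of KO45, to 0.76. The call held with the mouse block (0.63 ± 0.12, adjusted p = 0.00378).

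Cdkn2d (p19, an INK4 inhibitor; chromosome 9, 21288410 to 21291407, minus strand) had the largest rise of the 9 tested genes in both genotypes. It was at 11.1, 20.0 and 17.1 CPM in the Wt DN3 libraries of WT05, WT46 and WT48, and at 46.6, 62.9, 53.6 and 59.1 CPM in the Wt DN4 libraries of WT05, WT40, WT46 and WT48. KO-labelled libraries of KO45, KO49 and KO51 measured 24.8, 27.2 and 21.1 CPM at DN3 and 87.0, 46.7 and 51.2 CPM at DN4. The stages were separate in both genotypes. Cdkn2d rose by 1.73 ± 0.21 (SE, log2) in Wt (edgeR adjusted p = 0.000892) and by 1.31 ± 0.24 in KO-labelled cells (adjusted p = 0.00802). The 250 bases before the start of both called inhibitor genes are shown for comparison, Cdkn1b at chr6:134920151-134920400 and Cdkn2d, on the minus strand, at chr9:21291210-21291459. Capitals mark the single match of the pair, to the RBPJ letters on the minus strand in Cdkn2d.
Cdkn1b: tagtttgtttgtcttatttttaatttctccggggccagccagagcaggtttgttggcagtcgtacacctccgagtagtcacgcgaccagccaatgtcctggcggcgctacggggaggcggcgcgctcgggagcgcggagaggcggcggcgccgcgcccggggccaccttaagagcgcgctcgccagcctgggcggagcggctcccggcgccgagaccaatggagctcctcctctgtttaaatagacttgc
Cdkn2d: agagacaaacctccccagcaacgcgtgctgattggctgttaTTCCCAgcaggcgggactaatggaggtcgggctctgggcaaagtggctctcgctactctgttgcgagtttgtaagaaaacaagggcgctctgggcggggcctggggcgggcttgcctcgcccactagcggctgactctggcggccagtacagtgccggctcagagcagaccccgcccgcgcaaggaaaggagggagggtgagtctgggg
The FOXO, E-box and E2F letters had no match in either window, which says nothing about binding elsewhere. Neither start of Cdkn2c held any of the searched letters.

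Cdkn2c (p18, the other INK4 inhibitor; chromosome 4, 109660876 to 109667189, minus strand) did not pass the test in either genotype. Wt DN3 libraries of WT05, WT46 and WT48 had 36.0, 30.4 and 36.9 CPM, and Wt DN4 libraries of WT05, WT40, WT46 and WT48 had 46.3, 54.0, 49.1 and 39.6 CPM. KO-labelled libraries of KO45, KO49 and KO51 had 22.0, 44.2 and 43.9 CPM at DN3 and 58.0, 61.8 and 72.8 CPM at DN4. The ranges did not overlap in either genotype. The change was 0.43 ± 0.14 (SE, log2) in Wt (edgeR adjusted p = 0.0594) and 0.79 ± 0.24 in KO-labelled cells (adjusted p = 0.0585). It was called in Wt without the DN4 library of WT48 (0.51 ± 0.13, edgeR adjusted p = 0.0314) and in KO-labelled cells without the DN3 library of KO45 (0.53 ± 0.14, adjusted p = 0.0463). With the mouse block it was called in KO-labelled cells (0.84 ± 0.15, adjusted p = 0.0023) and not in Wt cells (adjusted p = 0.21).

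Rb1 (the pocket protein that holds E2F factors; chromosome 14, 73183673 to 73325822, minus strand) measured 98.6, 46.02 and 48.1 CPM in the Wt DN3 libraries of WT05, WT46 and WT48. The Wt DN4 libraries gave 128, 107, 110 and 78.4 CPM for WT05, WT40, WT46 and WT48. KO-labelled libraries of KO45, KO49 and KO51 had 39.3, 53.6 and 52.5 CPM at DN3 and 95.2, 76.2 and 81.1 CPM at DN4. The WT05 DN3 value lay inside the DN4 range, and the other 5 DN3 values lay below it. Rb1 rose by 0.78 ± 0.14 (SE, log2) in KO-labelled cells (edgeR adjusted p = 0.00819), and in Wt cells the change was 0.71 ± 0.29 (adjusted p = 0.112). Without the WT05 DN3 library the Wt change was 1.13 ± 0.19 (adjusted p = 0.00644), and with the mouse block 0.76 ± 0.20 (adjusted p = 0.0323). Rb1 was higher in DN4 in 6 of 6 mice, by 0.373 to 1.27 on the log2 scale.

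Several of the genes overlap exons of a gene on the opposite strand, and the strand setting of the counting is not given in the sources used here. This holds for Ccnd1 (LTO1), Ccnd2 (Gm43126 and 9330179D12Rik), Ccnd3 (Bysl), Cdk4 (Tspan31), Cdk6 (Gm17590), Cdk2 (Pmel) and Rb1 (Rcbtb2 and Lpar6), so that reads of the partner may be included. Cdkn1b, Cdkn2c and Cdkn2d overlap no other gene in the annotation used.

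Shares within a library do not depend on its size and give the division of counts among related genes. Of the counts per kb of the 3 D cyclins, Ccnd3 held 58.5 ± 8.65% (SD, n = 3) in KO-labelled and 60.2 ± 2.12% (SD, n = 3) in Wt DN3 cells. In DN4 cells it held 80.4 ± 2.01% (SD, n = 3) and 66.9 ± 7.34% (SD, n = 4), with nearly all of the rest in Ccnd2. Within mice the Ccnd3 share was 13.2 percentage points higher in DN4, in 5 of 6 mice, with an exact two-sided sign-flip permutation p of 0.0938 (adjusted p = 0.169 over the 9 tests of shares). The mouse in which it was not higher was WT05, at 59.4% and 58.1%. Between the genotypes at DN4 the share was 13.5 points higher in KO-labelled cells, whose lowest library (78.1%) was above the highest Wt library (73.9%). The exact permutation p was 0.0571 (adjusted p = 0.169), where 0.0286 is the smallest possible. At DN3 the difference was -1.65 points (exact permutation p = 0.9, smallest possible 0.1).

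Cdk4 took a larger share of the counts per kb of Cdk4 and Cdk6 in DN4. The share was 72.0 ± 1.98% (SD, n = 3) in KO-labelled and 63.2 ± 18.0% (SD, n = 3) in Wt DN3 cells, and 89.5 ± 0.841% (SD, n = 3) and 89.3 ± 1.15% (SD, n = 4) in DN4 cells. It was higher in DN4 in 6 of 6 mice, by 21.6 percentage points on average. The exact sign-flip permutation p was 0.0312, the smallest that 6 mice can give (adjusted p = 0.169). Among the Wt DN3 libraries the share was 42.5% in WT05, 71.3% in WT46 and 75.7% in WT48, and without the WT05 mouse the mean difference was 16.8 points. Between the genotypes the exact permutation p was 0.8 at DN3 and 0.83 at DN4.

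**Figure D3:**
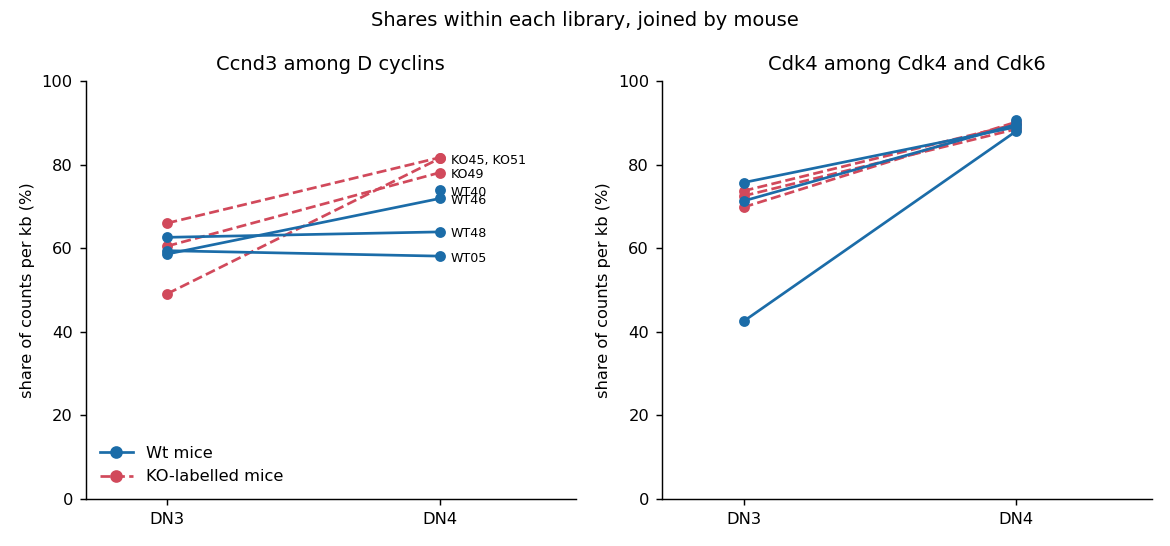
Share of counts per kb (percent, from 0 to 100) held by Ccnd3 among the D cyclins and by Cdk4 among Cdk4 and Cdk6, with lines joining the DN3 and DN4 libraries of a mouse (Wt solid, KO-labelled dashed; WT40 has DN4 alone). All KO-labelled DN4 libraries hold 78.1% or more of Ccnd3, and all DN4 libraries hold 88.0% or more of Cdk4.

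Whether the floxed Opa1 genotype went with different levels of these genes was compared within each stage. At DN3, 0 of the 9 genes passed the edgeR test, as did 0.0% of the 12105 genes tested (168 genes had an unadjusted p under 0.05, and DESeq2 called 3 genes or 0.0248%, none of the 10). The ranges did not overlap for 2 of 9 genes, Cdkn1b and Cdkn2d, where this held for 6.44% of all genes. Both were higher in KO-labelled DN3 cells, Cdkn1b by 0.40 ± 0.15 (SE, log2; unadjusted p = 0.0275, adjusted p = 1) and Cdkn2d by 0.56 ± 0.23 (unadjusted p = 0.0366, adjusted p = 1). The DN4 and immature single-positive marker sums also did not overlap at DN3, at 380 to 456 CPM in KO-labelled and 325 to 363 CPM in Wt cells. All 8 markers of that list had positive differences and none was called, with the largest for Trac (0.99 ± 0.22, unadjusted p = 0.00203, adjusted p = 1) and Cd2 (0.96 ± 0.34, unadjusted p = 0.0221, adjusted p = 1). Their part in the differences of Cdkn1b and Cdkn2d was not tested. The difference in Cdk6 of -0.61 ± 0.37 was 0.03 ± 0.11 without the WT05 DN3 library, and that in Rb1 of -0.40 became 0.04 ± 0.16.

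At DN4, 0 of the 9 genes passed edgeR, against 0.0535% of 13084 genes (7 genes; 715 had an unadjusted p under 0.05). Ccnd2 and Cdkn2c, 2 of the 9, had separate ranges, where this held for 7.08% of all genes. Ccnd2 was 168 ± 12.8 CPM (SD, n = 3) in KO-labelled and 247 ± 36.2 CPM (SD, n = 4) in Wt DN4 cells, a log2 difference of -0.52 ± 0.12 (SE; edgeR adjusted p = 0.712). Under the DESeq2 Wald test, which called 51 genes in all (0.39%), Ccnd2 was the only one of the 9 called, at -0.53 and an adjusted p of 0.0236. Cdkn2c was 64.2 ± 7.69 CPM (SD, n = 3) in KO-labelled and 47.2 ± 6.01 CPM (SD, n = 4) in Wt DN4 cells, a log2 difference of 0.47 ± 0.14 (edgeR adjusted p = 0.832). Ccnd3 differed by 0.46 ± 0.20 (edgeR adjusted p = 0.883), with 1 Wt library, WT40, inside the KO-labelled range. The remaining 6 genes differed by -0.30 to 0.19 on the log2 scale. The DN3 marker sums were 779 to 1960 CPM in KO-labelled and 465 to 1090 CPM in Wt DN4 cells. Those of DN4 and immature single-positive markers were 1510 to 4040 and 929 to 2750 CPM. Positive differences were found for 5 of 7 tested DN3 markers and 7 of 8 of the others, none of them called. Notch3 differed by 1.04 ± 0.21 (unadjusted p = 0.000929, edgeR adjusted p = 0.427). The part of the stage markers was not tested. The B cell marker sums overlapped between the genotypes (897 to 3250 CPM in KO-labelled and 1080 to 5100 CPM in Wt cells). With their log2 level as a covariate, a fit added after the data were seen, none of the 9 was called and the differences were as large, at -0.52 ± 0.12 for Ccnd2, 0.45 ± 0.11 for Ccnd3 and 0.45 ± 0.09 for Cdkn2c (edgeR adjusted p = 0.201, 0.232 and 0.129). The NK and innate lymphoid marker sums did not overlap, at 229 to 330 CPM in KO-labelled and 353 to 447 CPM in Wt cells, lower in KO-labelled cells as Ccnd2 was. Of that list Nkg7 differed by -0.71 ± 0.11 (unadjusted p = 0.000163, edgeR adjusted p = 0.164), Klrd1 by -1.18 ± 0.37 and Eomes by -0.79 ± 0.22 (adjusted p = 0.854 and 0.828). The other differences were -0.28 ± 0.17 for Gzma, 0.16 ± 0.46 for Klrb1c and 0.03 ± 1.01 for Ncr1. Thus 4 of the 6 markers had a negative difference and 2 a positive one. With the log2 level of this list as the covariate, also added after the data were seen, the difference was -0.46 ± 0.19 for Ccnd2, 0.41 ± 0.21 for Cdkn2c and 0.19 ± 0.27 for Ccnd3 (edgeR adjusted p = 0.987 for each), so that Ccnd3 was less than its value without the covariate by over 1.5 times. In the same fit Cdkn1b turned from 0.07 to -0.28 and Cdkn2d from 0.19 to -0.39, Rb1 went from -0.30 to -0.64 and Cdk6 from 0.06 to 0.36, none of them called. These sums were mostly Gzma, which averaged 240 CPM (KO-labelled DN4) against 298 CPM (Wt DN4). Gzma was also present at DN3, with means of 264 CPM (KO-labelled) against 236 CPM (Wt). There Ncr1, Klrb1c, Klrd1 and Eomes had 0 or 1 counts in every library. The covariate therefore followed Gzma more than the other markers, and whether it tracks NK or innate cells was not tested. Since these sums separate the genotypes, the level of this list and genotype cannot be told apart at DN4. The gamma delta T sums overlapped (687 to 1010 CPM in KO-labelled and 898 to 1960 CPM in Wt cells), with all 5 tested markers at negative differences.

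The difference between the genotypes in the stage change itself, the interaction over all 13 libraries, was called for 0 of the 9 genes and for 0.0% of 13361 genes (480 had an unadjusted p under 0.05, and DESeq2 called 2 or 0.015%, none of the 10). The interaction of Ccnd2 was -0.66 ± 0.19 (SE, log2; unadjusted p = 0.00376, adjusted p = 1). Those of Ccnd3 and Cdk6 were 0.40 ± 0.29 and 0.63 ± 0.44 (both adjusted p = 1), and without the WT05 DN3 library that of Cdk6 was 0.02 ± 0.27. That of Ccnd3 was 0.22 ± 0.28 without the DN3 library of KO45. Thus the calls of Ccnd2, Ccnd3 and Rb1 in KO-labelled cells alone are not shown to differ from Wt cells at this threshold.

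**Figure D4:**
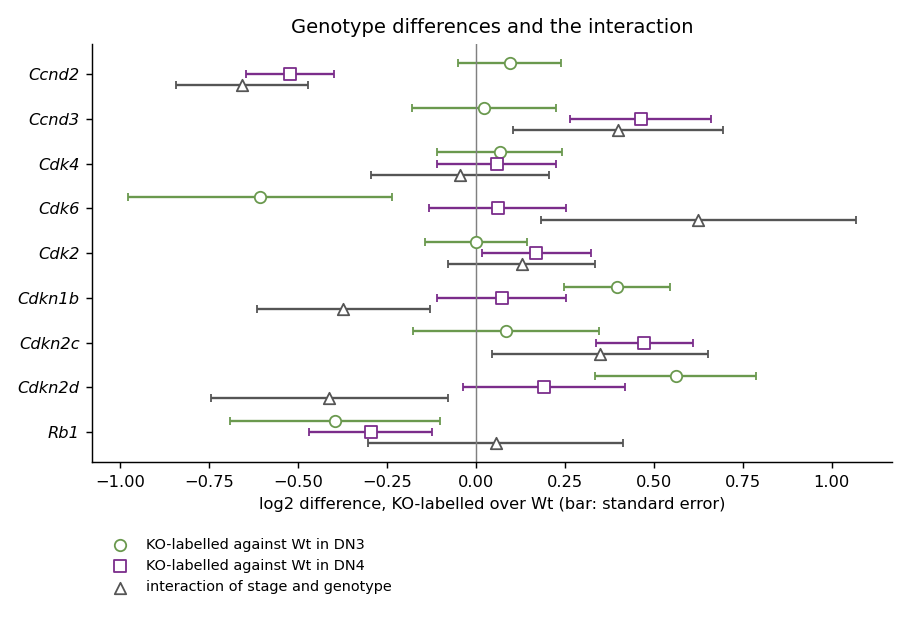
Log2 difference between KO-labelled and Wt cells at DN3 (green circles) and DN4 (purple squares), and the interaction, the KO-labelled minus the Wt stage change (grey triangles), with standard errors. All symbols are open because none passed the edgeR test at an adjusted p under 0.05; Ccnd2 at DN4 lies at -0.52.

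The other genes of the pathway were counted by list. Of 13 tested genes among the other G1/S regulators (E cyclins, p21, further pocket proteins and the CDK-activating kinase), 1 was higher and 2 lower in DN4 in Wt cells, and 1 was higher and 4 lower in KO-labelled cells. Over all genes tested 13.4% were higher and 9.43% lower in Wt, and 11.2% and 7.34% in KO-labelled cells. Cdkn1a, which encodes the inhibitor p21, went the opposite way to Cdkn1b and Cdkn2d: it fell by 2.12 ± 0.27 (SE, log2) in Wt and by 2.48 ± 0.24 in KO-labelled cells (edgeR adjusted p = 0.00114 and 0.00065). It averaged 29.1 ± 11.6 CPM (SD, n = 3) in Wt DN3 and 6.89 ± 0.506 CPM (SD, n = 4) in Wt DN4 cells. Rbl2, which encodes the pocket protein p130, rose by 0.93 ± 0.14 and 0.97 ± 0.21 (adjusted p = 0.00262 and 0.0159). Ccnh, the cyclin of the CDK-activating kinase, fell by 0.40 ± 0.10 and 0.58 ± 0.11 (adjusted p = 0.0224 and 0.00884). The KO-labelled call of Rbl2 was lost without the DN3 library of KO49 or KO51 (adjusted p = 0.0779 and 0.0705), and the Wt call of Ccnh without the DN3 library of WT48 or the DN4 library of WT05, WT40 or WT46 (0.0508 to 0.094).

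Among the 10 E2F and DP genes, the transcription factors downstream of RB, E2f6 was lower in both genotypes, by 0.57 ± 0.13 in Wt and 0.48 ± 0.11 in KO-labelled cells (edgeR adjusted p = 0.0141 and 0.0198). The call was lost in Wt without the DN3 library of WT48 (adjusted p = 0.0595), and in KO-labelled cells without that of KO49 or KO51 at DN3 or KO45 or KO49 at DN4 (0.0526 to 0.0726). It was the single call in Wt cells, while 2 genes were higher and 1 lower in KO-labelled cells. Of 11 genes of cyclin and p27 turnover, 1 was lower in Wt and 0 were called in KO-labelled cells, where 3 had a positive and 8 a negative change. None of the 15 S-phase genes was called in either genotype, where 22.9% of all genes were called in Wt and 18.6% in KO-labelled cells, shares against which the counts of these lists are to be read, and their median change was -0.22 in Wt and -0.04 in KO-labelled cells. The largest changes among them were those of Rrm2, a subunit of ribonucleotide reductase (0.33 and 0.31), Mcm2 in Wt (-0.29) and Mcm6 in KO-labelled cells (-0.29), both subunits of the replicative helicase. Of the 12 mitosis genes 1 was higher in each genotype, Cenpa, a centromeric histone (0.49 ± 0.13 and 0.63 ± 0.12, edgeR adjusted p = 0.0285 and 0.0104). Its call was lost in Wt without the DN3 library of WT46 or WT48 or the DN4 library of WT05 or WT46 (adjusted p = 0.0737 to 0.108), and in KO-labelled cells without the DN3 library of KO51 (0.0646). Mki67, the proliferation marker Ki-67, changed by -0.75 ± 0.49 in Wt and 0.56 ± 0.19 in KO-labelled cells without passing the test (adjusted p = 0.312 and 0.0835), with a range of 484 to 2050 CPM in Wt DN3 cells. The highest of these was the WT05 library, without which the Wt change of Mki67 turned to 0.26 ± 0.22 (adjusted p = 0.418).

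Of 15 genes that act upstream of the D cyclins and p27, 3 were higher and 5 lower in DN4 in Wt cells, and 4 were higher and 5 lower in KO-labelled cells, beside 13.4% higher and 9.43% lower over all genes in Wt and 11.2% and 7.34% in KO-labelled cells. The receptors Notch1 and Notch3 fell, Notch1 by 2.12 ± 0.19 (SE, log2) in Wt and 1.42 ± 0.17 in KO-labelled cells (edgeR adjusted p = 0.000233 and 0.00139), and the changes of Notch3 were -3.20 ± 0.11 and -2.09 ± 0.31 (adjusted p = 8.74e-06 and 0.00341). Il7r, the receptor of interleukin 7, fell by 0.79 ± 0.12 and 1.43 ± 0.23 (adjusted p = 0.00243 and 0.00502). Myc and Mycn, which encode factors that bind E-boxes, fell too, Myc by 0.98 ± 0.19 and 0.96 ± 0.23 (adjusted p = 0.00755 and 0.0248; the latter call was lost without the DN3 library of KO49 or KO51 or the DN4 library of KO49, at 0.0502 to 0.0695) and the changes of Mycn were -1.85 ± 0.35 and -2.09 ± 0.29 (adjusted p = 0.00632 and 0.00271). Foxo1, a FOXO factor known to act on Cdkn1b, rose by 2.43 ± 0.25 and 2.15 ± 0.19 (adjusted p = 0.000417 and 0.000546). Bcl6, a repressor known to act on Ccnd2, rose by 3.01 ± 0.17 and 3.75 ± 0.37 (adjusted p = 3.38e-05 and 0.000737), and Klf2, a factor of quiescent T cells, by 4.98 ± 0.41 and 3.94 ± 0.32 (adjusted p = 0.000154 and 0.000482). B cell markers, which a lineage-negative gate is meant to keep out, rose alongside Bcl6 and Klf2, and their part was not tested. Between the genotypes 0 genes of these lists were called at either stage.

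As a description of pattern, the genes whose log2 CPM over the 13 libraries followed a D cyclin most closely were listed among 13360 genes by Pearson correlation. For Ccnd2 they were Rab10 (0.908), Bcl2 (0.904) and 3830406C13Rik (0.873). For Ccnd3 they were Cdkn2c (0.948), Lrrc42 (0.947) and Trbv13-1 (0.944), so that of all genes the nearest to Ccnd3 was the inhibitor p18. The libraries share stages and mice, and the correlations carry no test.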

How the data were processed

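Per the labels, RNA was isolated from freshly sorted thymocytes and libraries were made with the TruSeq stranded mRNA kit and sequenced on an Illumina HiSeq instrument. The authors used deepTools, Cutadapt, STAR, featureCounts and DESeq2 with the build mm10 per the labels and the methods of the study; versions, annotation and strand setting are not given in the sources used here. The deposited values are raw counts per gene (5926848 to 14148661 per library). Gene names and exon lengths came from GENCODE M21 (GRCm38), which matched 47310 of 47937 identifiers with version numbers left out, and promoters from RefSeq (GRCm38.p6). Counts were tested with edgeR 4.0.16 (R 4.3.3): filterByExpr with a minimum count of 10, TMM, the quasi-likelihood test and Benjamini-Hochberg adjustment over all genes tested, with a threshold of 0.05, on the 2 groups compared or on all 13 libraries for the interaction. DESeq2 1.42.0, limma 3.58.1 (voom), other scalings and filters, the mouse block and leaving out each library were alternatives. Shares were compared with exact permutation tests. Correlations between libraries used log2(CPM + 0.5). No 2 replicates agreed within sampling noise (chi-squared per degree of freedom at least 6.19). Named were the 10 genes, listed genes called in both genotypes, the 2 S-phase and mitosis genes of largest change in each genotype and the 3 genes most like each D cyclin; genes listed beyond these were counted. The genes and lists were chosen with earlier results of these data known. The fit was tested on simulated data. Libraries of a stage and genotype carry different numbers, and p-values measure the spread between them.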

Additional observations from a re-analysis of the deposited data

Results flagged for a closer look

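Ccnd2 in the DN4 Wt group held a library far from the others: 301 CPM in mouse WT05, above 224 to 235 CPM in the other 3, a gap of 0.855 of the range and past Dixon's 95% limit for 4 samples. Of 13 sets of values examined in this way it was the single case, and chance flags about 1 in 20 sets. All 13 came from the Wt DN4 group, because the limits used start at 4 samples. Groups of 3 libraries, among them the Wt DN3 group with its WT05 library, were not examined. In Ccnd2 the other Wt DN4 libraries also lay above all 3 KO-labelled DN4 libraries (156 to 181 CPM).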

How the results depend on the processing

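Counts of the 9 genes called ranged from 3 to 4 in Wt and from 5 to 9 in KO-labelled cells between the stages over all alternatives, and were 0 between the genotypes and for the interaction except for the DESeq2 Wald test at DN4 (1, Ccnd2). Scaling by library totals moved all genes by a median of 0.17 on the log2 scale in the Wt stage comparison, by 0.23 between the genotypes at DN3 and by -0.18 in the interaction; 77.8% of the Wt stage calls were then higher in DN4, against 58.8% with TMM. Over all genes, the Wt stage calls were 2903 and became 1782 with library totals and 1845 to 3393 on leaving out a library; the KO-labelled calls were 2338 and became 4499 with the replicate block and 1407 to 2790 on leaving out a library. The genotype calls at DN4 were 7, and became 11 with no filter, 51 with DESeq2, 25 with the B cell covariate, 0 with the NK marker covariate, 5 with all 13 libraries in a single fit and 0 to 8 on leaving out a library. At DN3 they were 0, 3 with DESeq2 and up to 1 on leaving out a library; DESeq2 called 2 genes in the interaction. The replicate block (mouse number) gave 4 called in Wt, 9 in KO-labelled cells and 0 in the interaction; it added the calls of Rb1 in Wt and of Cdk4, Cdk2 and Cdkn2c in KO-labelled cells and changed no other call.

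Directions turned for changes near 0 and, at DN3, for the larger genotype differences of Cdk6, Rb1 and the Cdk4 share when the WT05 DN3 library was left out. With the NK marker covariate (a sum made up mostly of Gzma), at DN4, Cdkn1b was -0.28, Cdkn2d -0.39, Cdk6 0.36 and Rb1 -0.64. Ccnd2 between the stages in Wt was 0.0084 with DESeq2 size factors, 0.21 with library totals, 0.026 with no filter, 0.013 with at least 10 counts in every library, 0.0096 with DESeq2, 0.023 with all 13 libraries and 0.010 with the replicate block. Cdk2 between the genotypes at DN3 was -0.0089 with voom. In the interaction Cdk2 was -0.052 with library totals, and Rb1 was -0.26 with library totals and -0.088 with voom. On leaving out a library, Ccnd2 between the Wt stages ranged from -0.11 to 0.058. At DN3 the genotype differences ranged from -0.11 to 0.21 for Ccnd3, -0.078 to 0.18 for Cdk4, -0.87 to 0.029 for Cdk6, -0.10 to 0.12 for Cdk2, -0.067 to 0.35 for Cdkn2c and -0.59 to 0.038 for Rb1. At DN4 they ranged from -0.073 to 0.22 for Cdk4, -0.15 to 0.26 for Cdk6, -0.17 to 0.20 for Cdkn1b and -0.16 to 0.37 for Cdkn2d. The interaction ranged from -0.19 to 0.13 for Cdk4 and -0.35 to 0.25 for Rb1. The causes were not tested.

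Without the replicate block the stage difference in the Ccnd3 share was 13.4 points and that in the Ccnd2 share -13.3 points, both with an exact permutation p of 0.0134. Leaving out a mouse gave a Cdk4 share 16.8 to 23.2 points higher in DN4, with a p of 0.0625, the smallest that an exact test of 5 mice can give. The genotype difference ranged from -5.40 to 3.08 points for the Ccnd3 share at DN3, from -3.02 to 5.47 for the Ccnd2 share at DN3, and for the Cdk4 share from -1.51 to 15.1 at DN3 and from -0.29 to 0.63 at DN4. Depth limited Ccnd1 (0 to 13 counts) and, at an effective size of 3417440, every value of the WT05 DN3 library.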
